A study of Homo sapiens with 6 samples.

Results

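Intraflagellar transport and BBSome genes encode the machinery that carries cargo along the primary cilium, and 37 of them were followed among the 63086 genes of the deposited table. The members are the subunits of intraflagellar transport complexes A and B, the BBSome with its chaperonin-like assembly factors, the small GTPases ARL6 and ARL3, the cargo adaptor TULP3, and the heavy chain and light intermediate chain of dynein-2. They were picked by name for what their products do, with no threshold on a measured value. The list was drawn up with results of this same contrast known, so the counts, fold changes and p-values of its members are given as a description, and nothing about the list as a whole is read from them. All 37 members had enough counts to be tested.

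RNA was sequenced from the established human melanoma line A375, which has an activated BRAF gene, in 2 groups of 3 libraries that the submitters call biological replicates. The first group carried a CRISPR/Cas9 knockout of DUS1L and had gone through clonal selection, and the second was the wild-type line, kept alongside and never targeted. Both groups grew in DMEM with fetal bovine serum and received no other treatment per the labels. The DUS1L protein is a dihydrouridine synthase, which reduces uridines in tRNA. How many clones were used is not stated, so an effect of the genotype and an effect of picking a clone cannot be told apart. P-values measure the spread between these libraries.

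The libraries held between 17121315 and 18861514 estimated counts, and 3 counts in a library correspond to 0.159 to 0.176 CPM (counts scaled to library size after TMM normalization), a limit that covers counting error only. The first principal component held 53% of the variance and separated the genotypes, and wild-type replicate 1 stood apart from wild-type replicates 2 and 3 on the second, at -31.6 against 15.5 and 16.3. The DUS1L transcript was at 55.4, 54.7 and 53.1 CPM in the knockout libraries, against 79.95, 75.7 and 77.0 CPM in the wild-type libraries. Its groups did not overlap, with a log2 fold change of -0.51 (SE 0.06, adjusted p = 1.7e-06, edgeR quasi-likelihood test), and such counts carry no information on the edited bases. As a check of the labelled cell type, the melanocyte lineage factor SOX10 was at 480.5 CPM in knockout and 603.8 CPM in wild-type cells, while the pigment enzyme TYR was at 0 in all 6 libraries and DCT, PMEL and MLANA each had at most 9 counts in any library.

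As background, a primary cilium is a single antenna-like projection that many cell types build from a centriole when they leave the cell cycle and take down again before mitosis. Trains of intraflagellar transport complex B, pulled outward by kinesin-2, carry tubulin and other building blocks to the tip, and complex A with dynein-2 brings material back and brings membrane receptors in. The BBSome, a coat-like complex recruited by ARL6, rides on these trains and moves signalling receptors out of the cilium, and mutations in its subunits cause Bardet-Biedl syndrome. Several of these proteins also work outside the cilium, for example in vesicle traffic, and transcript levels do not show whether cells have a cilium.

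Among the 37 listed members, more were called lower than higher in DUS1L knockout cells, each by a small amount. This describes a list drawn up with these results known and tests nothing. In the fit across all 16046 tested genes, 14 of the 37 members (37.8%) were lower and 2 (5.41%) were higher at an adjusted p under 0.05, and 21 were not called. Of all tested genes, 20.7% were lower and 20.5% were higher. In either direction, 41.2% of all tested genes and 43.2% of the members were called. The 14 lower members were IFT122 and IFT140 of complex A, 7 genes of complex B (IFT22, IFT25, IFT52, IFT70A, IFT74, IFT80 and IFT81), BBS2 of the BBSome, the chaperonin-like BBS10, the adaptor TULP3, and the dynein-2 genes DYNC2H1 and DYNC2LI1. The 2 higher members were WDR35 of complex A and IFT56 of complex B. In bulk RNA, a lower level per cell and a smaller share of cells with the transcript cannot be told apart.

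The changes were small. Log2 fold changes ran from -0.87 to 0.40 with a median of -0.16, against a median of -0.0042 over all tested genes. They were below 0 for 29 of 37 members (78.4%), against 50.6% of all tested genes, and 5 of the uncalled members changed sign under at least 1 other setting. Summed over the 37 members, the level was 766.7, 758.7 and 768.7 CPM in the knockout libraries, against 864.8, 853.6 and 837.6 CPM in the wild-type libraries, and the groups did not overlap. No member was shown by edgeR's glmTreat to have changed by more than 1.5-fold in either direction, against 3.58% of all tested genes (2.31% higher, 1.27% lower), and 1 member, IFT70A, had an unadjusted p under 0.05 in that test.

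**Figure D1:**
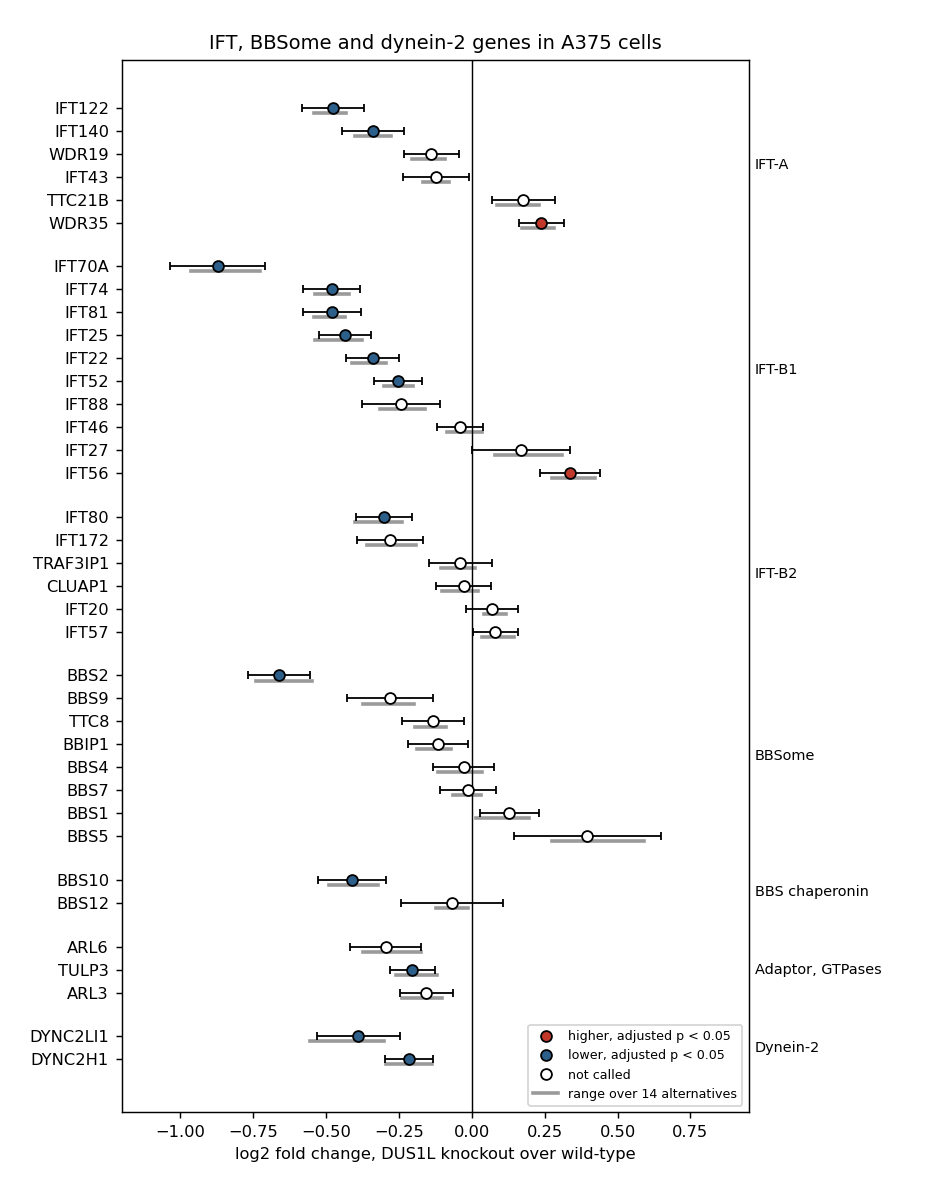
Log2 fold change of each member, DUS1L knockout over wild-type, with complexes from top to bottom and bars of 1 SE (3 libraries a genotype); grey lines give the range of the log2 fold change over 14 alternative settings. Filled points passed the adjusted p of 0.05, with 14 on the lower side and 2 on the higher side, and no point lies beyond -0.87 or 0.40.

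The 3 knockout libraries all lay below the 3 wild-type libraries for 16 members and all above them for 3 members, together 51.4% of the members. Of all tested genes, 51.1% had groups that did not overlap, with knockout below in 25.8% and above in 25.4%. The 3 members with knockout libraries above were WDR35, IFT56 and TTC21B. Of the 16 called members, 8 were called in the reported fit and in all 14 alternative settings, namely IFT122, IFT22, IFT25, IFT70A, IFT74, IFT81, BBS2 and BBS10, and all 8 were lower in knockout cells. Without wild-type replicate 1, the library that stood apart, 12 members were lower and 2 were higher. Without knockout replicate 1, 9 members were lower and 1 was higher. Of all genes called, 50.2% were higher without wild-type replicate 1 and 49.9% without knockout replicate 1.

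**Figure D2:**
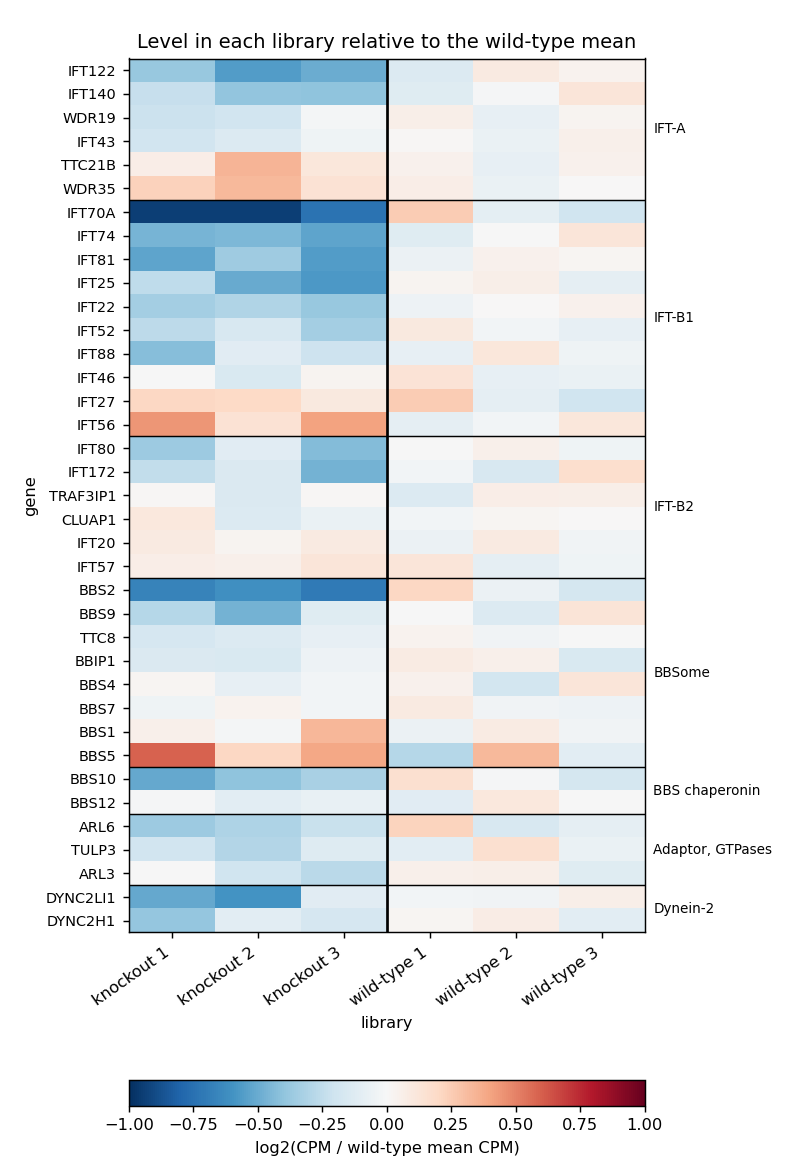
Level of each member in each of the 6 libraries as log2 of its CPM over the mean CPM of the wild-type libraries, with knockout libraries left of the black line and wild-type libraries right of it, and genes grouped by complex. Blue rows left of the line are deepest for IFT70A and BBS2, and red ones are seen for WDR35, TTC21B, IFT56 and the weakly expressed BBS5.

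Promoter sequence is shown for 5 called members because many cilium genes are known to be driven by RFX factors, which bind a motif called the X-box near the transcription start. The windows are RefSeq promoters on GRCh38.p14, each 300 bases long, from 250 bases before the annotated start to 50 after it, and 34 of 37 members had one (all but WDR35, BBS9 and IFT22). Each was searched on both strands for 4 spellings of the X-box, GTNNCCNGNAAC, GTNNCCNNGNAAC, GTNNCCNNNGNAAC and GTNNCCNNNNGNAAC, which differ by 0 to 3 bases between the arms and may overlap one another. Capitals mark a match in the 5 windows below, each written 5′ to 3′ on the strand of its gene. The first 3 members were lower in knockout cells and have a match, IFT56 was higher and has a match, and BBS2 was lower and has none.
IFT122, chr3:129439974-129440273, plus strand: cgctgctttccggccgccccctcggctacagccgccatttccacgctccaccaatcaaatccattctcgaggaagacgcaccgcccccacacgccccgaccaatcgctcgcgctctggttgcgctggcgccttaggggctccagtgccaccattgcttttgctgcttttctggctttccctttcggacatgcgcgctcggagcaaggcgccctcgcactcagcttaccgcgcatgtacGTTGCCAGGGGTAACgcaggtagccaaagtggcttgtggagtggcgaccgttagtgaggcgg
IFT70A, chr2:177618693-177618992, minus strand: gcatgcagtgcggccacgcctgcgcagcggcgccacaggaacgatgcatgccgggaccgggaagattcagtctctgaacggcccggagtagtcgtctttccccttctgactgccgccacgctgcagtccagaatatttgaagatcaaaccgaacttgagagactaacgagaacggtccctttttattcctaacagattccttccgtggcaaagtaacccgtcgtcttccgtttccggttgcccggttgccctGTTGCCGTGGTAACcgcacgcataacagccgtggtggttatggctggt
DYNC2LI1, chr2:43773789-43774088, plus strand: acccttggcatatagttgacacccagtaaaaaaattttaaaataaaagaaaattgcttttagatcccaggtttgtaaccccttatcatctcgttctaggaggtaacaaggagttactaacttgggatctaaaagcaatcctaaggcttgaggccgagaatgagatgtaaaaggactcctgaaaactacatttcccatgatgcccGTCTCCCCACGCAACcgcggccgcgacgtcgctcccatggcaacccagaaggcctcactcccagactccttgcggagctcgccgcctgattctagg
IFT56, chr7:139133528-139133827, plus strand: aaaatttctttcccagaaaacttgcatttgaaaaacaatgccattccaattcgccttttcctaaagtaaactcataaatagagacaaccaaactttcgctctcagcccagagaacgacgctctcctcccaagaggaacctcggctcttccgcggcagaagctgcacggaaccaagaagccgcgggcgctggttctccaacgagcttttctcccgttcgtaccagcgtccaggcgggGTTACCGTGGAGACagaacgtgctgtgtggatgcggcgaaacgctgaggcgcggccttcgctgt
BBS2, chr16:56519975-56520274, minus strand: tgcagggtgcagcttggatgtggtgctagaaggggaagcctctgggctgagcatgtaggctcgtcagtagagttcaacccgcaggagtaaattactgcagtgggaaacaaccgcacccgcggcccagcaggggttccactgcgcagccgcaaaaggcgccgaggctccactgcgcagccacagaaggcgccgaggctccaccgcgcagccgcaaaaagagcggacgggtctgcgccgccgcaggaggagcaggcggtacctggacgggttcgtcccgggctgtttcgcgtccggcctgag

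The match in IFT122 ran from -12 to 2 and that in IFT70A from 2 to 15, counted from the annotated start at 0. The match in DYNC2LI1 ran from -46 to -32. In IFT56 the match ran from -14 to -1 and lay on the opposite strand, so the capitals show its complement. The starts are those of RefSeq, and for IFT122 and BBS2 they lie inside the longer gene span of GENCODE.

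A match was present in 6 of the 34 member promoters (17.65%) and in 1761 of all 35116 RefSeq promoters (5.01%), whether or not their genes were expressed here. The median GC content was 62.5% in the member windows and 58.7% in all RefSeq windows. Of the other lists, the transition zone had a match in 47.06%, the motile ciliated cell markers in 54.55%, and the basal body and hedgehog lists in 0%. These differences were not tested. Besides the 4 shown, IFT57 had 2 matches and ARL6 had 1, and neither gene was called. By outcome, 3 of 13 lower members, 1 of 1 higher member and 2 of 20 uncalled members had a match. None of the 7 BBSome promoters had one. No match says only that these spellings are not in the window.

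Complex A, whose 6 subunits include the core proteins of retrograde transport, split between the directions, with 2 genes lower, 1 higher and a median log2 fold change of -0.13. That is 33.3% lower and 16.7% higher, against 20.7% and 20.5% of all tested genes. IFT122, a core subunit needed for retrograde transport and for entry of ciliary receptors, had 15.6, 13.7 and 14.3 CPM in the knockout libraries, against 18.3, 21.5 and 20.8 CPM in the wild-type libraries. Every knockout library lay below every wild-type library, with a log2 fold change of -0.48 (SE 0.11, adjusted p = 0.00126, edgeR quasi-likelihood test). IFT140, another core subunit, had 16.8, 15.0 and 14.95 CPM in the knockout libraries, against 18.1, 19.6 and 21.5 CPM in the wild-type libraries. Its groups did not overlap either, at a log2 fold change of -0.34 (SE 0.11, adjusted p = 0.0149, edgeR).

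WDR35, known as IFT121, went the other way. It had 41.7, 44.4 and 39.3 CPM in the knockout libraries, against 37.0, 33.8 and 35.5 CPM in the wild-type libraries. The knockout libraries were all higher, with a log2 fold change of 0.24 (SE 0.08, adjusted p = 0.0177, edgeR). TTC21B, known as IFT139, also had its 3 knockout libraries above the wild-type libraries, at 18.3 ± 1.90 against 16.2 ± 0.780 CPM (SD, n = 3 each), but was not called (adjusted p = 0.204, edgeR). The core subunit WDR19 (22.2 against 24.4 CPM) and the small subunit IFT43 (12.7 against 13.8 CPM) overlapped between genotypes. The IFT140 call was lost without knockout replicate 2 (adjusted p = 0.0535), knockout replicate 3 (0.0589) or wild-type replicate 3 (0.0775) in edgeR. The WDR35 call was lost without knockout replicate 2 (adjusted p = 0.0902) or wild-type replicate 2 (0.0887), and at 0.0582 under a correction for transcript length and GC content.

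Complex B, which moves cargo toward the tip and on which cilium assembly depends, held 7 of the 14 lower members among its 16 genes, and its median log2 fold change was -0.25. Its core part, often called IFT-B1, had 6 of 10 genes lower, 1 higher and a median of -0.30. Its peripheral part, often called IFT-B2, had 1 of 6 genes lower, none higher and a median of -0.03. The lower shares of the core and peripheral parts were 60% and 16.7%, against 20.7% of all tested genes. Summed CPM of the core part was 210.3, 202.5 and 202.6 in the knockout libraries, against 246.8, 239.8 and 237.5 in the wild-type libraries. The difference between the core and peripheral parts was not tested.

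IFT74 and IFT81 form a coiled-coil pair in the core that binds tubulin as cargo. IFT74 had 18.4, 18.6 and 17.6 CPM in the knockout libraries, against 23.3, 25.3 and 27.5 CPM in the wild-type libraries. IFT81 had 16.2, 18.2 and 15.9 CPM in the knockout libraries, against 22.3, 24.0 and 23.6 CPM in the wild-type libraries. Both genes had separated groups and nearly the same log2 fold change, -0.48 for IFT74 (SE 0.10, adjusted p = 0.000457) and -0.48 for IFT81 (SE 0.10, adjusted p = 0.000583, edgeR for both).

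IFT25, which pairs with IFT27 in the train and is needed for hedgehog signalling in mice, had 31.5, 26.6 and 25.3 CPM in the knockout libraries, against 38.3, 39.1 and 35.4 CPM in the wild-type libraries. The groups did not overlap, and the log2 fold change was -0.44 (SE 0.09, adjusted p = 0.000537, edgeR). Its partner IFT27, a small GTPase, was at 6.89 ± 0.297 CPM in knockout and 6.13 ± 1.03 CPM in wild-type cells and was not called (adjusted p = 0.452, edgeR). IFT22, another small GTPase of the core, had 20.03, 20.6 and 19.5 CPM in the knockout libraries, against 24.5, 25.4 and 26.1 CPM in the wild-type libraries. Its groups were apart at a log2 fold change of -0.34 (SE 0.09, adjusted p = 0.00496, edgeR). Of the exon bases of IFT22, 59.0% lie opposite the antisense gene EMSLR, which had a log2 fold change of 0.002, and without a stated strand setting reads of the pair cannot be told apart.

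IFT70A, a tetratricopeptide repeat protein of the core listed as TTC30A in GENCODE, showed the largest difference among the 37 members. It had 5.15, 5.14 and 5.92 CPM in the knockout libraries, against 11.8, 9.27 and 8.61 CPM in the wild-type libraries. The highest knockout library lay below the lowest wild-type library, and the level was 1.83-fold lower in knockout cells, a log2 fold change of -0.87 (SE 0.16, adjusted p = 0.000199, edgeR). The test against 1.5-fold gave an adjusted p of 0.216 (glmTreat). IFT70A shares 96.0% of its 1998 coding bases with its neighbour IFT70B, and its estimated counts were fractional in all 6 libraries, so reads may have been divided between the 2 genes. The sum of both genes, which does not depend on that division, was 7.60, 8.03 and 9.03 CPM in the knockout libraries, against 15.6, 14.1 and 12.7 CPM in the wild-type libraries, again without overlap.

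The remaining called genes of the core were IFT52 and IFT56. IFT52, a scaffold subunit, had 29.6, 31.7 and 28.1 CPM in the knockout libraries, against 38.04, 34.9 and 33.6 CPM in the wild-type libraries. The groups were separate at a log2 fold change of -0.25 (SE 0.08, adjusted p = 0.0192, edgeR). IFT56, listed as TTC26 in GENCODE and known from zebrafish and mice for the import of a subset of ciliary proteins, had 26.7, 21.6 and 25.9 CPM in the knockout libraries, against 18.4, 19.2 and 21.2 CPM in the wild-type libraries. Every knockout library was higher, by a narrow margin for knockout replicate 2, with a log2 fold change of 0.34 (SE 0.10, adjusted p = 0.0125, edgeR).

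Both calls depended on single libraries. The IFT52 call was lost without knockout replicate 1 (adjusted p = 0.0558), knockout replicate 3 (0.0883) or wild-type replicate 1 (0.072), and at 0.051 when libraries were scaled by total counts alone. The IFT56 call was lost without knockout replicate 1 (adjusted p = 0.0756) or knockout replicate 3 (0.0623, edgeR for all). The uncalled core genes were IFT88, the scaffold whose loss in mice abolishes cilia, at 9.46 ± 1.02 against 11.2 ± 0.798 CPM, and IFT46 at 46.1 ± 2.93 against 47.4 ± 4.21 CPM, knockout before wild-type (SD, n = 3 each). IFT88 had its groups apart at an adjusted p of 0.153 (edgeR), and IFT46 overlapped.

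**Figure D3:**
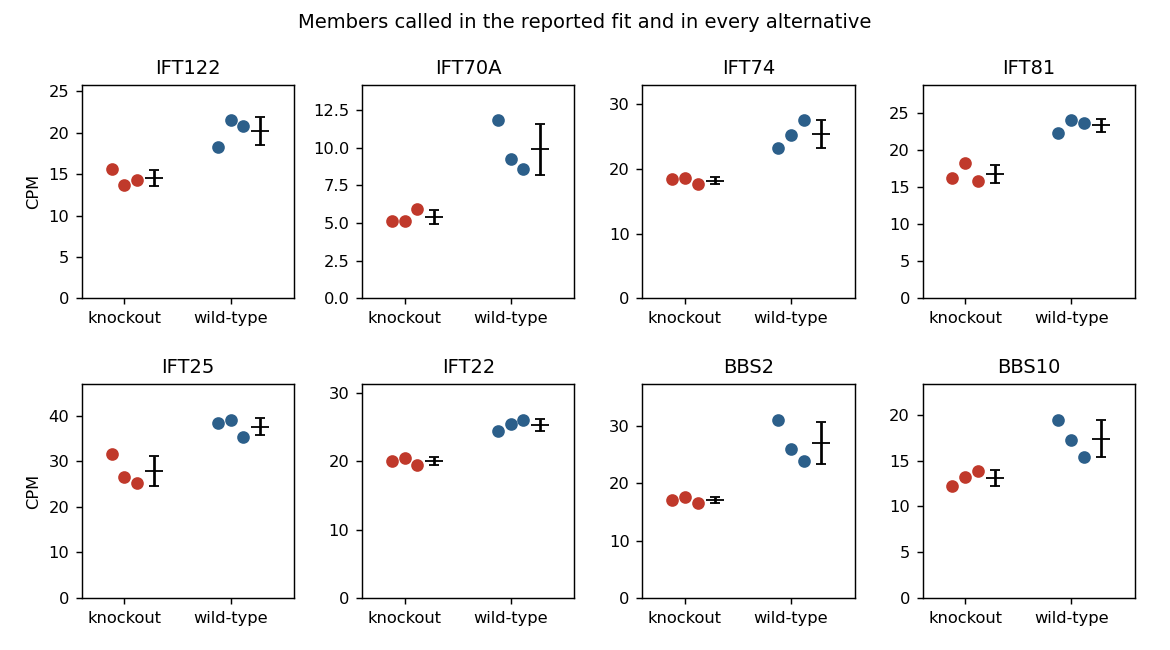
CPM of the 8 members called in the reported fit and in all 14 alternative settings, with 1 point per library, knockout left of wild-type, and the mean with 1 SD beside the points (n = 3 each); every axis starts at 0. In each panel the 3 knockout points lie below the 3 wild-type points, with the widest gap relative to the level for IFT70A and BBS2.

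Among the peripheral genes of complex B, IFT80 was the one called. It had 22.2, 26.4 and 21.2 CPM in the knockout libraries, against 28.5, 29.6 and 27.8 CPM in the wild-type libraries. The groups were apart, with a log2 fold change of -0.30 (SE 0.10, adjusted p = 0.0155, edgeR). The call was lost without knockout replicate 1 (adjusted p = 0.0652), knockout replicate 3 (0.0875) or wild-type replicate 2 (0.058). IFT80 shares 27.6% of its exon bases with an overlapping same-strand gene, and 3.4% lie opposite SMC4, which was lower in knockout cells at a log2 fold change of -0.47.

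The other peripheral genes overlapped between genotypes. IFT172, the largest subunit and a link to turnaround at the tip, had 17.8, 19.1 and 15.2 CPM in the knockout libraries, against 20.8, 18.9 and 23.7 CPM in the wild-type libraries. Its log2 fold change of -0.28 (SE 0.11) had an adjusted p of 0.0527 (edgeR), and it was called without knockout replicate 2 (adjusted p = 0.0364) or wild-type replicate 2 (0.0302), with no filter on low counts (0.035) and under the length and GC correction (0.0148). TRAF3IP1 (IFT54), CLUAP1 (IFT38), IFT20, which also works at the Golgi, and IFT57 had log2 fold changes from -0.04 to 0.08. Of the exon bases of IFT20, 11.2% lie opposite TMEM97, which was higher in knockout cells at a log2 fold change of 0.29.

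The BBSome had 1 of its 8 subunits lower (12.5%, against 20.7% of all tested genes) and none higher, with a median log2 fold change of -0.07. BBS2, a subunit of its core, had 17, 17.6 and 16.5 CPM in the knockout libraries, against 31.0, 25.9 and 23.9 CPM in the wild-type libraries. The knockout libraries were close together and well below the wild-type libraries, at 1.58-fold less, a log2 fold change of -0.66 (SE 0.11, adjusted p = 3.82e-05, edgeR). The test against 1.5-fold gave an adjusted p of 0.822 (glmTreat). BBS7 and BBS9, which join BBS2 in the assembly core, were at 21.0 ± 0.624 and 7.70 ± 0.935 CPM in knockout cells, and at 21.2 ± 1.15 and 9.36 ± 0.863 CPM in wild-type cells (SD, n = 3 each). Neither was called, with adjusted p of 0.934 for BBS7 and 0.134 for BBS9 (edgeR). BBS1, BBS4, TTC8 (BBS8) and BBIP1 (BBS18) had log2 fold changes from -0.13 to 0.13 and were not called. BBS5 had the highest log2 fold change of all members, 0.40, at 35 to 71 counts a library (SE 0.25, adjusted p = 0.22, edgeR), and its groups overlapped. Of their exon bases, BBS1 shares 54.0% and BBS5 23.5% with same-strand genes, and 25.0% of BBS1 and 22.8% of BBIP1 lie opposite other genes. Without a stated strand setting, reads of these genes may be mixed with those of their overlapping genes.

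BBS10 and BBS12 are chaperonin-like proteins that, with MKKS (BBS6), fold and hold BBS7 while the BBSome core is put together. BBS10 had 12.2, 13.2 and 13.9 CPM in the knockout libraries, against 19.5, 17.3 and 15.4 CPM in the wild-type libraries. It was lower without overlap, at a log2 fold change of -0.41 (SE 0.12, adjusted p = 0.00761, edgeR). BBS12 was at 5.23 ± 0.171 CPM in knockout and 5.48 ± 0.426 CPM in wild-type cells (SD, n = 3 each) and was not called (adjusted p = 0.791, edgeR). MKKS, which is no member and whose locus carries 3 overlapping identifiers in GENCODE, was lower at 33.4 ± 2.47 against 46.6 ± 4.91 CPM (log2 fold change -0.48, adjusted p = 0.000138, edgeR).

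Of the adaptors and small GTPases, TULP3 was lower, and ARL6 and ARL3 were not called. TULP3, which bridges complex A and phosphoinositide-rich membrane to carry receptors into the cilium, had 55.0, 51.1 and 57.5 CPM in the knockout libraries, against 58.3, 70.1 and 59.9 CPM in the wild-type libraries. The gap between the highest knockout and the lowest wild-type library was narrow, and the log2 fold change was -0.20 (SE 0.08, adjusted p = 0.0386, edgeR). ARL6, which recruits the BBSome to membranes, had 12.1, 12.5 and 13.4 CPM in the knockout libraries, against 18.1, 13.9 and 14.7 CPM in the wild-type libraries. Its groups did not overlap, wild-type replicate 1 was the highest, and the adjusted p was 0.0587 at a log2 fold change of -0.30 (SE 0.12, edgeR). ARL3, which releases lipidated cargo inside the cilium, had 31.3, 27.3 and 26.1 CPM in the knockout libraries, against 32.6, 32.7 and 29.0 CPM in the wild-type libraries, with overlap (log2 fold change -0.16, SE 0.09, adjusted p = 0.182, edgeR).

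The log2 fold change of these 3 genes stayed below 0 in all settings run, but whether they were called depended on the setting. The TULP3 call was lost without knockout replicate 1 (adjusted p = 0.0812), knockout replicate 2 (0.159) or wild-type replicate 2 (0.268), with total-count scaling (0.107), in DESeq2 (0.0617) and in limma-voom (0.0537). ARL6 was called without wild-type replicate 2 (adjusted p = 0.0386) and under the length and GC correction (0.0279). ARL3 was called under that correction alone (0.0478).

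Both dynein-2 members, subunits of the motor for the return journey, were lower (2 of 2, against 20.7% of all tested genes). DYNC2H1, the heavy chain, had 34.8, 42.2 and 40.4 CPM in the knockout libraries, against 46.0, 47.9 and 42.2 CPM in the wild-type libraries. Knockout replicate 2 and wild-type replicate 3 met, so the groups overlapped, and the log2 fold change was -0.21 (SE 0.08, adjusted p = 0.0428, edgeR). DYNC2LI1, the light intermediate chain, had 7.92, 7.45 and 10.4 CPM in the knockout libraries, against 11.1, 11.0 and 11.8 CPM in the wild-type libraries. Here the groups were apart, at a log2 fold change of -0.39 (SE 0.14, adjusted p = 0.0343, edgeR).

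Neither dynein-2 call held in all settings. The DYNC2H1 call was lost without knockout replicate 1 (adjusted p = 0.246), knockout replicate 3 (0.0653), wild-type replicate 1 (0.0694) or wild-type replicate 2 (0.162), with total-count scaling (0.105), in DESeq2 (0.0737) and without robust estimation (0.052). The DYNC2LI1 call was lost without knockout replicate 1 (adjusted p = 0.128), knockout replicate 2 (0.143), wild-type replicate 2 (0.0662) or wild-type replicate 3 (0.0991), with total-count scaling (0.0615) and in DESeq2 (0.0649).

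Compared per length of the canonical transcript, members differed widely in level. In both genotypes IFT25 was the highest, at 40.6 CPM per kilobase in knockout and 54.9 CPM per kilobase in wild-type cells. IFT20 and IFT46 followed, with 29.1 and 29.5 CPM per kilobase in knockout cells and 27.7 and 30.4 CPM per kilobase in wild-type cells. Low levels were those of BBS12, at 1.62 in knockout and 1.69 CPM per kilobase in wild-type cells, of IFT70A, at 0.941 in knockout and 1.72 CPM per kilobase in wild-type cells, and of BBS5, at 1.05 in knockout and 0.794 CPM per kilobase in wild-type cells. The called members lay at both ends of the range of levels.

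Of 9 intermediate and light chains, 8 were tested, 5 (62.5%) were lower and none was higher, against 20.7% and 20.5% of all tested genes. The median log2 fold change was -0.26, and most of these light chains also serve other dyneins. The lower ones were DYNLT3 (log2 fold change -0.54), the dynein-2 intermediate chain DYNC2I2 (-0.47), DYNLT1 (-0.29), DYNLRB1 (-0.23) and DYNLL1 (-0.18), and their groups did not overlap. DYNC2I2 was at 54.7 ± 6.62 CPM in knockout and 75.8 ± 4.35 CPM in wild-type cells (SD, n = 3 each, adjusted p = 9.72e-05, edgeR). The other dynein-2 intermediate chain, DYNC2I1, was at 26.04 ± 0.178 against 26.9 ± 0.480 CPM and was not called (adjusted p = 0.688, edgeR). The light chain DYNLT2B was not called either, at 3.14 ± 0.782 against 4.52 ± 0.765 CPM, though its groups did not overlap (log2 fold change -0.52, SE 0.23, adjusted p = 0.077, edgeR).

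Kinesin-2, the motor for the outward journey, was mixed. Of 5 genes, 2 were lower and 2 higher (40% each, against 20.7% and 20.5% of all tested genes), with a median log2 fold change of 0.09. Its accessory subunit KIFAP3 was lower, at 45.6 ± 1.66 against 58.3 ± 1.11 CPM (log2 fold change -0.35, adjusted p = 0.000265, edgeR), and so was the motor subunit KIF3A, at -0.25 (adjusted p = 0.0386). The motor subunit KIF3B was higher, at 86.4 ± 4.31 against 71.6 ± 3.13 CPM (0.27, adjusted p = 0.00168). The homodimeric KIF17 was higher from a low level, at 1.89 ± 0.177 against 0.687 ± 0.169 CPM (1.46, adjusted p = 0.00356), and each pair of means gives knockout cells first. The KIF3A call was lost without knockout replicate 1 (adjusted p = 0.196), knockout replicate 3 (0.0643), wild-type replicate 2 (0.058) or wild-type replicate 3 (0.115, edgeR for all), with total-count scaling (0.0883) and in DESeq2 (0.0698).

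Of 8 further partners of the trains and the BBSome, MKKS and IFT70B were lower and TRIM32 (BBS11), an E3 ubiquitin ligase, was higher, with a median log2 fold change of 0.03. That is 25% lower and 12.5% higher, against 20.7% and 20.5% of all tested genes. TRIM32 was at 40.4 ± 1.42 CPM in knockout and 32.2 ± 4.28 CPM in wild-type cells (log2 fold change 0.33, adjusted p = 0.00558, edgeR), and this call was lost without wild-type replicate 2 (adjusted p = 0.0591). IFT70B was at 2.81 ± 0.336 CPM in knockout and 4.22 ± 0.546 CPM in wild-type cells (log2 fold change -0.59, adjusted p = 0.0394). Its call was lost without knockout replicate 1 (0.134), knockout replicate 2 (0.0687), wild-type replicate 2 (0.16) or wild-type replicate 3 (0.0638), with total-count scaling (0.0562), with no filter on low counts (0.0601) and in DESeq2 (0.0742).

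At the transition zone, the gate at the base of the cilium, 4 of 21 genes were lower, 2 were higher and the median log2 fold change was -0.16. These shares, 19% lower and 9.52% higher, stood against 20.7% and 20.5% of all tested genes. TMEM107 had the largest difference, at 5.04 ± 0.933 CPM in knockout and 9.90 ± 1.37 CPM in wild-type cells (SD, n = 3 each, log2 fold change -0.98, adjusted p = 0.000103, edgeR). B9D1 (-0.44) and TMEM231 (-0.49), which belong to the same gate complex, were lower as well. The calls of TMEM237 (-0.27), AHI1 (0.32) and IQCB1 (0.25) did not hold in all settings. TMEM237 lost its call without knockout replicate 1 (adjusted p = 0.0868), knockout replicate 2 (0.0726), knockout replicate 3 (0.11), wild-type replicate 1 (0.147) or wild-type replicate 3 (0.0756), with total-count scaling (0.091), with no filter on low counts (0.0559) and in DESeq2 (0.0838). AHI1 lost its call without knockout replicate 1 (0.0613), knockout replicate 2 (0.0612), wild-type replicate 2 (0.0982) or wild-type replicate 3 (0.0816), and under the length and GC correction (0.066). IQCB1 lost its call without knockout replicate 2 (0.149), knockout replicate 3 (0.052), wild-type replicate 2 (0.134) or wild-type replicate 3 (0.164). Among 15 genes for ciliary membrane cargo and its GTPases, RAB34 (-0.34), PDE6D (-0.50), ARL2 (-0.29) and RAB11A (-0.26) were lower and none was higher, with a median of -0.08. Of this list 26.7% were lower, against 20.7% of all tested genes.

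At the basal body, from which the cilium grows, 3 of 16 genes were lower and 1 was higher, with a median log2 fold change of -0.05. These shares, 18.8% lower and 6.25% higher, stood against 20.7% and 20.5% of all tested genes. ODF2, a component of the appendages, was lower at -0.30, and OFD1 was higher at 0.30. CEP131 (-0.39) lost its call without wild-type replicate 3 (adjusted p = 0.0647, edgeR). TALPID3 (-0.23) lost its call without knockout replicate 1 (0.115), knockout replicate 3 (0.132) or wild-type replicate 3 (0.0944), and with total-count scaling (0.0713).

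Of 12 genes that restrain cilium assembly or drive disassembly, 7 (58.3%) were lower and none was higher, against 20.7% and 20.5% of all tested genes. Their median log2 fold change was -0.25, and 3 of the 12 were lower by more than 1.5-fold in glmTreat, against 1.27% of all tested genes. These were PLK1 (-1.02), NEK2 (-0.82) and AURKA (-0.78), mitotic kinases that also promote cilium resorption, and NDE1, a brake on cilium length, was lower at -0.52. KIF2A (-0.16) was also lower. Its call was lost without knockout replicate 1 (adjusted p = 0.0685), 2 (0.0541) or 3 (0.093), or wild-type replicate 3 (0.0791, edgeR). With total-count scaling its adjusted p was 0.117. Of 9 proliferation markers, 8 (88.9%) were lower, against 20.7% of all tested genes, and 4 were lower by more than 1.5-fold in glmTreat, against 1.27%. The summed level of all 9 was 1195 to 1230 CPM in the knockout libraries, against 1879 to 2067 CPM in the wild-type libraries. PCNA (-0.145), among the 8, lost its call without knockout replicate 2 (adjusted p = 0.0643) or 3 (0.0739), and with total-count scaling (0.108, edgeR). The part of the cell cycle in the members' differences was not tested.

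**Figure D4:**
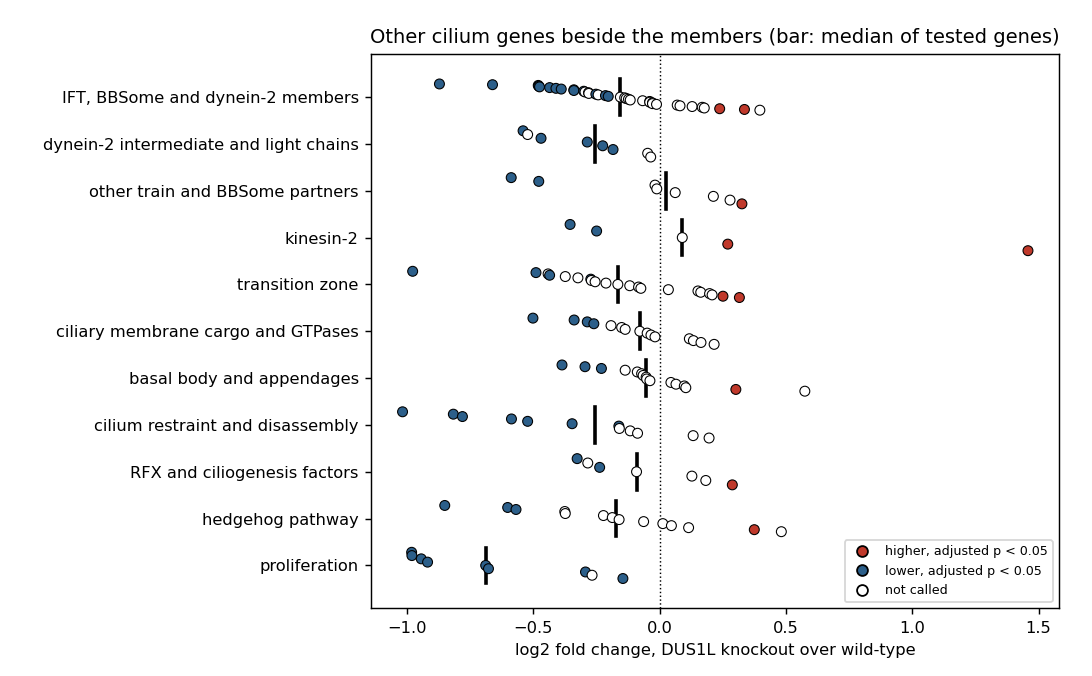
Log2 fold change, DUS1L knockout over wild-type, of every tested gene of the members' list and of 10 other lists, with 1 point per gene and a vertical bar at the median of each list. The members' median is -0.16, and the point furthest to the right is KIF17 at 1.46. The restraint and disassembly list reaches furthest to the left, at -1.02, followed by the proliferation and transition zone lists, both at -0.98.

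Of the listed RFX factors, some of which are known to drive ciliary genes through the X-box, RFX4 and RFX6 had at most 1 count in any library and the others were tested. Of 11 RFX and ciliogenesis factors, 7 were tested, 2 (28.6%) were lower and 1 (14.3%) was higher, with a median log2 fold change of -0.09. Over all tested genes the shares were 20.7% and 20.5%. RFX2 was at 9.31 ± 0.909 against 8.21 ± 1.17 CPM and RFX3 at 17.6 ± 0.943 against 18.7 ± 2.37 CPM, knockout before wild-type (SD, n = 3 each), and neither was called (adjusted p = 0.348 and 0.544, edgeR). RFX5, better known for MHC class II genes, was lower at -0.33 (adjusted p = 0.000153). RFX1 was higher at 0.29, lost without knockout replicate 1 (adjusted p = 0.188) or wild-type replicate 2 (0.074), and RFX7 was lower at -0.24, lost without knockout replicate 1 (0.111) or wild-type replicate 2 (0.126) and with total-count scaling (0.0597).

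FOXJ1, the factor for motile cilia, had at most 1 count in any library. Of 15 markers of motile ciliated cells, 8 had at most 10 counts in every library, SPAG6 was at 0, and the summed level was 45.4 to 48.9 CPM in the knockout libraries, against 81.5 to 87.9 CPM in the wild-type libraries. Most of that sum was CAPS, at 29.0 CPM in knockout and 65.6 CPM in wild-type cells, a calcium-binding protein that was lower at a log2 fold change of -1.18. TPPP3 was lower (-1.25) and DNAH5 higher (1.64) from low levels.

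The hedgehog pathway, which signals through the primary cilium in vertebrates, had 14 of 18 genes tested, 3 lower and 1 higher, with a median log2 fold change of -0.17. That is 21.4% lower and 7.14% higher, against 20.7% and 20.5% of all tested genes. PTCH1, the hedgehog receptor and a transcriptional target of the pathway, was at 10.3 ± 1.31 CPM in knockout and 18.6 ± 2.38 CPM in wild-type cells (SD, n = 3 each, log2 fold change -0.85). GLI3, the main repressor, was lower at -0.60, and GLI2, the main activator, was higher at 0.38. GLI1, another target, was at 0.871 ± 0.266 CPM in knockout and 0.980 ± 0.387 CPM in wild-type cells and was not called (adjusted p = 0.8, edgeR). GAS1, a co-receptor, was lower at -0.57, lost without knockout replicate 1 (adjusted p = 0.0685), knockout replicate 2 (0.107), wild-type replicate 1 (0.0961) or wild-type replicate 3 (0.115).

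Markers of other cell types were low or mixed. Of 7 keratinocyte markers, KRT5, KRT1 and IVL were at 0, and the sum, nearly all KRT10, was 50.1 to 59.4 CPM in the knockout libraries, against 53.2 to 58.9 CPM in the wild-type libraries. Of 7 leukocyte markers, CD3E was among those at 0 and ITGAM was higher (log2 fold change 1.67), and the sum was 31.5 to 34.9 CPM in the knockout libraries, against 25.0 to 26.1 CPM in the wild-type libraries. Of 7 fibroblast markers, none was at 0 and PDGFRB was lower (-0.89). The collagen genes COL1A1, at 52.9 CPM in knockout and 19.4 CPM in wild-type cells, and COL1A2, at 29.7 CPM in knockout and 11.1 CPM in wild-type cells, were not called in the reported fit, but were called in limma-voom (adjusted p = 0.0338 and 0.0463) and without robust estimation (0.0359 and 0.0258, edgeR). The fibroblast sum was 87.1 to 186.1 CPM in the knockout libraries, against 44.3 to 109.5 CPM in the wild-type libraries. Of 12 melanocyte lineage markers, 8 were tested, 5 (62.5%) were lower and 1 (12.5%) was higher, against 20.7% and 20.5% of all tested genes. The higher one, TFAP2A (0.29), lost its call in DESeq2 (adjusted p = 0.0522). It also did so without knockout replicate 1 (0.0958) or 2 (0.15) or wild-type replicate 1 (0.0804) or 3 (0.0752), in edgeR. With no filter (0.0512) and under the length and GC correction (0.0865) it was lost too. The sum, mostly SOX10, was 585.4 to 653.7 CPM in the knockout libraries, against 788.2 to 810.2 CPM in the wild-type libraries. Mitochondrial transcripts took 3.79% to 4.1% of the counts in the knockout libraries, against 4.41% to 4.77% in the wild-type libraries, and the part of none of these in the members' differences was tested.

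The tested genes within 1 Mb of a member give its local surroundings. Around IFT70A, 13 neighbours had a median log2 fold change of 0.02, with 4 lower and 1 higher. Around BBS2, 28 neighbours had a median of -0.02, with 5 lower and 5 higher. Around IFT56, which was higher, 13 neighbours had a median of 0.26, with 4 higher and none lower. DYNC2H1, which was lower, sat among 13 neighbours with a median of 0.36, with 6 higher and 3 lower. Of all tested genes, 20.7% were lower and 20.5% were higher. These loci are examples, and others were as uneven. Around IFT57, not called, 6 neighbours had a median of -0.25, with 4 lower and 1 higher. Around IFT80, which was lower, 10 had a median of 0.20, with 6 higher and 1 lower. Around CLUAP1, not called, 61 had a median of 0.16, with 23 higher and 8 lower.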

How the data were processed

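Total RNA from 6 A375 libraries was sequenced with paired ends. The values are expected counts, which need not be whole, in a single table that the authors deposited with no normalization recorded. Reads were placed on GRCh38 (hg38), per the submitters' processing notes. Aligner, counter, strand setting and annotation: not given in the sources used here. Of 63086 identifiers, 62541 (99.1%) matched GENCODE release 44, and IFT56, IFT70A, IFT70B, MKKS and TALPID3 were matched through RefSeq symbols at the same position.

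Counts were rounded, filtered with filterByExpr (minimum count 10; 14272 genes with a count were not tested), scaled by TMM, and compared by the robust quasi-likelihood test of edgeR 4.0.16 (R 4.3.3), two-sided, with Benjamini-Hochberg adjustment over 16046 genes. CPM use the scaled library size. glmTreat tested changes beyond 1.5-fold. The procedure was tested on simulated data in which 200 genes were given a change, while 6608 of 16046 genes were called in the real data. In the simulation it recovered 19.6% of the 1.25-fold changes, 62% of the 1.5-fold changes and 76% of the 2-fold changes. With so few changed genes the Benjamini-Hochberg adjustment is stricter, so these shares are not the recovery of the reported fit. An uncalled member may still have changed by a small amount. No 2 libraries agreed within sampling noise (chi-square per degree of freedom 3.75 to 7.28 within genotypes). Total-count scaling, DESeq2 1.42.0, limma-voom 3.58.1, other filters, a replicate block, a non-robust fit and leaving out each library were alternatives, and the length and GC correction was added after seeing the data. The members, the cilium lists and the marker lists were chosen with earlier results of these data known. Given in full were called members with the smallest p in each complex and all adaptor, GTPase and dynein-2 members. Of other lists, at most 4 genes with the smallest p were named. Genes behind counts of 5 or fewer were named too, except the lower melanocyte markers, the proliferation markers past 1.5-fold and the neighbours. Some uncalled genes and some with calls that changed between settings were also named.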

Additional observations from a re-analysis of the deposited data

How the results depend on the processing

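Estimates were least precise for the weakly expressed members, with SEs of 0.25 for BBS5, 0.18 for BBS12 and 0.17 for IFT27 on the log2 scale. Lower members numbered 10 with total-count scaling, 11 in DESeq2, 13 in limma-voom and in the non-robust fit, 15 with no filter, 14 with a minimum count of 30 and 17 under the length and GC correction, which was chosen after seeing the data. Higher members numbered 2 in these settings except the length and GC correction, which left 1. Of all genes called, 49.8% were higher in the reported fit, 58.7% with total-count scaling and 42.9% under the length and GC correction. The other settings named here gave 48.4% to 50.5%. Leaving out 1 library at a time gave 9 to 12 lower and 1 to 2 higher members, with 9 lower without knockout replicate 1. Among the 16408 to 16532 genes tested in those fits, 2669 to 3330 were higher and 2700 to 3307 lower. No member passed the test against 1.5-fold in any edgeR setting, at most 1 having an unadjusted p under 0.05 in the reported fit. Total-count scaling moved the median of all genes by 0.045 and the length and GC correction by -0.046, and the members' median was -0.11 and -0.22 there. With the replicate number as a block, 2 members were higher and 12 lower, and of 16046 tested genes 3122 were higher and 3119 lower. In that edgeR fit the members TULP3 (adjusted p = 0.0655) and DYNC2H1 (0.0512) were not called, nor were IFT70B (0.0519), TMEM237 (0.0607) and KIF2A (0.053). Same-numbered libraries did not deviate together (correlations -0.03, -0.001 and 0.026). That gave no sign of pairing, but it cannot exclude that the libraries were prepared in pairs, which the labels do not say. Uncalled members near 0 changed sign with total-count scaling, to log2 fold changes of 0.007 for IFT46 and TRAF3IP1, 0.018 for CLUAP1 and BBS4, and 0.033 for BBS7, since that scaling shifts all genes upward. With 1 library left out, their values ranged from -0.083 to 0.036 for IFT46, -0.101 to 0.022 for CLUAP1, -0.102 to 0.01 for TRAF3IP1, -0.115 to 0.036 for BBS4 and -0.039 to 0.033 for BBS7; the cause was not tested.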
